A study of Rattus norvegicus with 11 samples.

Results

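The genes of antimicrobial and acute defence proteins were examined in rat bladder tissues with and without partial bladder outlet obstruction (PBOO), a surgical narrowing of the outflow that makes the bladder empty against resistance. The group was set by name and consisted of 10 genes, Lcn2, S100a8, S100a9, Pigr, Slpi, Camp, C3, Cfb, Ptx3 and Saa3. Of these, 9 had a row in the table of 18507 genes, and Saa3 was not analysed here because no row carried that symbol. RNA was sequenced from bladders of Sprague-Dawley rats in 4 groups, with 3 normal and 3 PBOO samples at week 4 and 3 normal and 2 PBOO samples at week 5. The study used adult female rats aged about 6 months, tied a suture round the bladder neck and urethra over a catheter that was then withdrawn, and opened and closed the abdominal wall of the controls without a tie. The columns of the week 5 normal samples are named as adult samples. Values are FPKM, which corrects the fragments of a gene for its exon length and for the mapped total, so that levels can be set against each other between genes.

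The bladder is lined by the urothelium, an epithelium that meets urine and microbes and secretes defence proteins, and beneath it lie connective tissue and the smooth muscle of the detrusor. Some of these proteins come mainly from epithelium, such as the transporter that carries IgA to the surface, while others are packed in neutrophils and also made by inflamed epithelium. Cytokines of the IL-1, IL-17, IL-6 and TNF families are known to induce many of them through NF-kappaB, C/EBP and STAT factors.

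The start regions of 5 of the genes are shown, those of 3 genes that rose with PBOO at week 5 (Pigr, C3 and S100a9) and of 2 that did not pass the test there (Lcn2 and Ptx3). Each run covers 250 bases before to 50 bases after the annotated start in the RefSeq assembly GRCr8, 5′ to 3′ on the gene's own strand, and capitals mark matches to the motifs searched.
Pigr (chr13:44850932-44851231, plus strand): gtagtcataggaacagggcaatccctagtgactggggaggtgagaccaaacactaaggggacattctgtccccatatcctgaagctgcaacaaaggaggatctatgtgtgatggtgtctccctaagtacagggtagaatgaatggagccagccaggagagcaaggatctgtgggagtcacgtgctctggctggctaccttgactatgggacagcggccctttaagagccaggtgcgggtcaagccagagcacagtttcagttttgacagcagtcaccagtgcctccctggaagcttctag
C3 (chr9:2201290-2201589, minus strand): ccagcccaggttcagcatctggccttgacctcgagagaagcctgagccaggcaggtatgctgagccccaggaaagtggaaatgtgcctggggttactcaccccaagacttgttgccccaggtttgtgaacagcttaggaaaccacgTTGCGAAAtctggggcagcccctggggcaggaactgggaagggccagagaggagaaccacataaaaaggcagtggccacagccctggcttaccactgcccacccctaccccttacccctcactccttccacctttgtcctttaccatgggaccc
S100a9 (chr2:178490573-178490872, minus strand): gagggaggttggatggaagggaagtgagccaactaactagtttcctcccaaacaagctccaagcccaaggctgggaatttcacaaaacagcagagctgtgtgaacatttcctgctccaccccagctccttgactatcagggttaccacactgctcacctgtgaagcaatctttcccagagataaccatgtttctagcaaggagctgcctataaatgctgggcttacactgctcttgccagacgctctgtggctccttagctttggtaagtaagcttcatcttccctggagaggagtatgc
Lcn2 (chr3:36081731-36082030, minus strand): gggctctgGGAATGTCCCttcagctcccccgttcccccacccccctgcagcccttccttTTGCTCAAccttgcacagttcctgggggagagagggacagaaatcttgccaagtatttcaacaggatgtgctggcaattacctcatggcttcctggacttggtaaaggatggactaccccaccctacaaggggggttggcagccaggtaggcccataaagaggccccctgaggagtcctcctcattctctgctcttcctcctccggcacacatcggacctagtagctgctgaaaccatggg
Ptx3 (chr2:152797313-152797612, plus strand): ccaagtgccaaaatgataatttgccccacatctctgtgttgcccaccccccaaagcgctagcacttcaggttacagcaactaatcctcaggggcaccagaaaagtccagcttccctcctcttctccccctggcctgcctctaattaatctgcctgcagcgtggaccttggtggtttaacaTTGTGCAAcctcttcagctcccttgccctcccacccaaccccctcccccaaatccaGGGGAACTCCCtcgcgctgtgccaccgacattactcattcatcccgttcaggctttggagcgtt
Of the 10 genes, 7 had an entry in the promoter table, and S100a8, Slpi and Cfb had none. Both strands were searched for the kappaB consensus, for the C/EBP motif TTGCNNAA and for the STAT motif TTCNNNGAA. The kappaB consensus was found in 3 of the 7 start regions (Lcn2, Camp and Ptx3) and in 7.51% of all 33469 in the table. The C/EBP motif was found in 4 of the 7 (Lcn2, C3, Ptx3 and Saa3) and in 10.6% of all. The STAT motif was found in 0 of the 7 and in 8.87% of all. The Lcn2 region held the kappaB consensus from base -242 and the C/EBP motif from base -191, the C3 region held the C/EBP motif from base -104, and the capitals nearest the start of Ptx3 are overlapping kappaB matches. The Pigr and S100a9 regions held no match.

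Before the defence genes were compared, the samples were checked with marker genes of bladder cell types. Urothelial markers were present in every sample, with a summed level of 4283 to 11391 FPKM over 13 genes, although Upk3b and Krt7 were listed at 0 in all week 4 samples. Smooth muscle markers summed to 24539 to 28875 FPKM in the week 5 normal samples and to 989 and 1849 FPKM in the PBOO samples of that week, and all 7 of these genes fell. Fibroblast markers summed to 1458 to 1807 FPKM in the normal and to 113 and 165 FPKM in the PBOO samples of week 5. Of these 6 genes, 5 fell, among them Col1a2, Col1a1 and Col3a1 (-4.13, -3.80 and -3.56). The part of these losses in the defence gene results was not tested. In all, 4871 genes were listed at 0 in every week 4 sample and 403 in every week 5 sample, so tests of levels were made within a week only. A level across weeks cannot be told apart from a difference between the week 4 and week 5 libraries. In bulk tissue, fewer cells of a type and less RNA per cell cannot be told apart either. Within groups, 2 libraries stood apart. Normal week 4 replicate 1 was low in immune and fibroblast markers, with 66.5 FPKM of summed macrophage markers against 382 and 446 FPKM in the other normal samples. The PBOO week 5 samples differed from each other in neutrophil markers, with 7.42 FPKM in replicate 1 and 61.3 FPKM in replicate 2. For the defence genes, the values without these samples are given beside those with all samples.

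At week 5, PBOO bladder tissues contained far more defence gene RNA than normal tissues. C3, Pigr and S100a9 were upregulated, which is 3 of the 8 genes tested, with limma (adjusted p under 0.05, change of 2-fold or more). Of all 13685 genes tested at week 5, 7.91% were higher by the same rule. No defence gene was lower. All samples of the PBOO group lay above all normal samples for 6 of the 8 genes, which was the case for 35.3% of all genes. The median log2 fold change over the 8 genes was 3.66, against 0.12 over all genes. Camp did not pass the filter on low values, a mean of 0.5 FPKM over the samples compared, in either week.

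At week 4, none of the 8 genes tested passed the adjusted threshold, which 0.265% of the 11320 genes passed as higher and 0.106% as lower. By a looser rule, a 2-fold change with p under 0.05 before adjustment, only Lcn2 was lower and no defence gene was higher, while 2.45% of all genes were lower and 2.46% higher by that rule. The median log2 fold change was -0.46 over the 8 genes and -0.25 over all genes. After the samples were scaled by the median of their ratios, the median over all genes was -0.01.

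**Figure D1:**
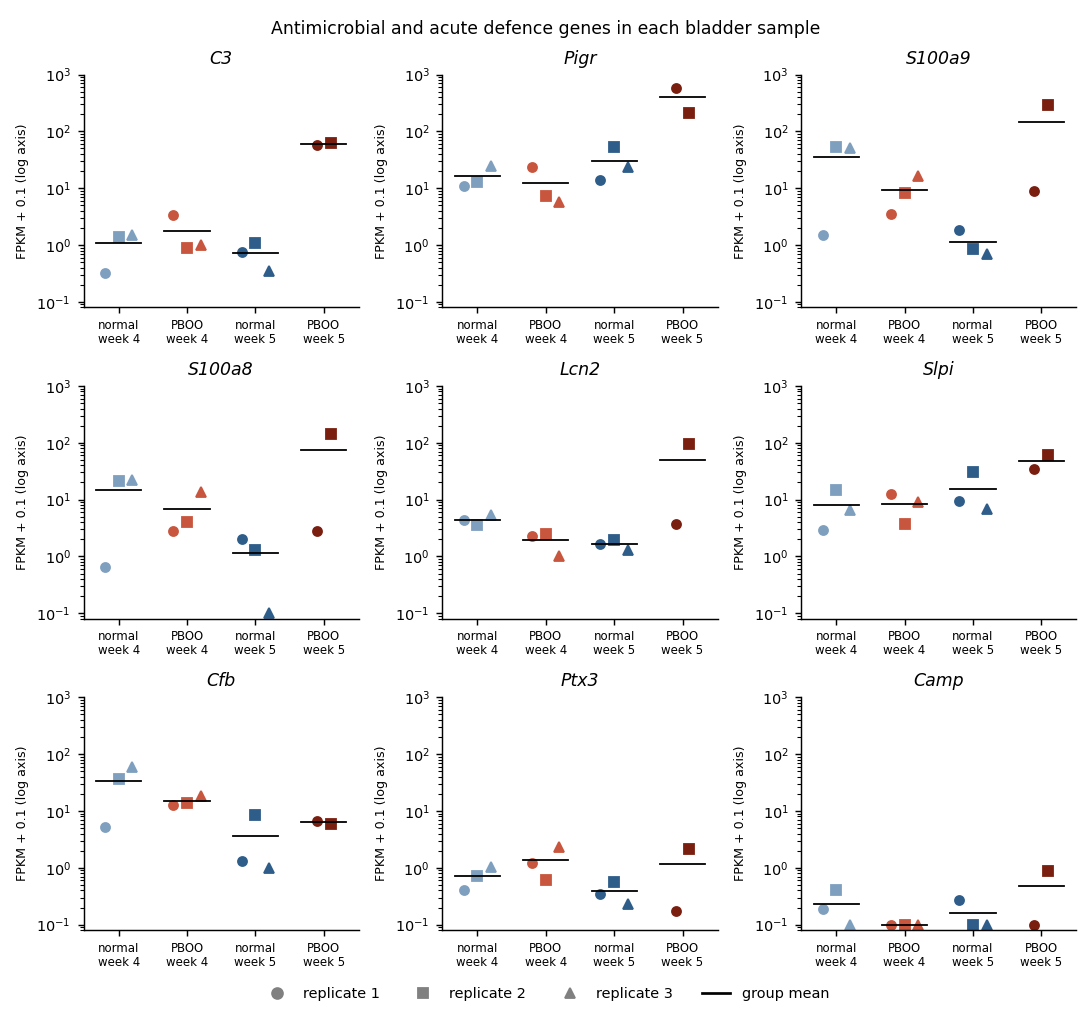
FPKM plus 0.1 (log axis) of the 9 defence genes in each of the 11 bladder samples, with 1 point per sample and a line at the group mean. C3 and Pigr are high in both PBOO samples of week 5 (57.3 and 63.5, and 590 and 207 FPKM), whereas S100a9, S100a8 and Lcn2 are far higher in replicate 2 than in replicate 1.

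Pigr encodes the polymeric immunoglobulin receptor, which carries IgA across the epithelium. It was the most abundant defence gene in normal tissues at week 5, with 13.7, 53.5 and 23.0 FPKM. In the PBOO tissues of week 5 it reached 590 and 207 FPKM, and the groups did not overlap. Pigr rose by 3.76 ± 0.68 on the log2 scale (SE, limma adjusted p = 0.0123), the group means being 30.1 ± 20.8 FPKM (SD, n = 3) and 398 ± 271 FPKM (SD, n = 2). Pigr in PBOO replicate 2 was at 0.350 of its level in replicate 1. Leaving out any 1 of the 5 samples gave log2 fold changes from 3.01 to 4.52 with adjusted p from 0.0164 to 0.0486. At week 4 the normal samples had 11, 12.8 and 24.4 FPKM and the PBOO samples 23.4, 7.32 and 5.53 FPKM, which overlapped (log2 fold change -0.61 ± 0.55, adjusted p = 0.445). Without PBOO replicate 1, the sample with the high value, the week 4 change was -1.23 with an adjusted p of 0.0584, and without normal replicate 1 it was -0.84 with an adjusted p of 0.390.

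C3, the central protein of the complement cascade whose cleavage tags microbes for uptake, showed the most uniform change. The normal samples of week 5 had 0.650, 0.991 and 0.243 FPKM, and the PBOO samples had 57.3 and 63.5 FPKM. Both PBOO samples stood far above the normal range and within 1.11-fold of each other. C3 rose by 6.53 ± 0.49 on the log2 scale (SE, adjusted p = 0.000763), with group means of 0.628 ± 0.374 FPKM (SD, n = 3) and 60.4 ± 4.38 FPKM (SD, n = 2), and the ratio of the means was 96.1. The value stayed between 6.06 and 6.89 whichever sample was left out, with adjusted p no higher than 0.00624. At week 4 it was low throughout, with 0.225, 1.27 and 1.42 FPKM in normal and 3.24, 0.784 and 0.910 FPKM in PBOO tissues. These ranges overlapped (log2 fold change 0.72 ± 0.76, adjusted p = 0.511), and without normal replicate 1 the change was -0.000913.

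Cfb encodes complement factor B, which joins cleaved C3 to form the convertase of the alternative pathway. Unlike C3, it did not pass the test at week 5. The normal samples had 1.21, 8.52 and 0.908 FPKM and the PBOO samples 6.57 and 5.79 FPKM, so that both PBOO values lay within the normal range (log2 fold change 1.48 ± 0.93, adjusted p = 0.276). Without normal replicate 2, the highest of its group, the change was 2.45 with an adjusted p of 0.00988. Without PBOO replicate 1 or 2 it was 1.39 or 1.57 (adjusted p = 0.452 and 0.411). At week 4 Cfb was at 5.05, 37.1 and 58.6 FPKM in normal tissues and at 12.8, 13.8 and 18.4 FPKM in PBOO tissues. The PBOO samples were again inside the normal range (log2 fold change -0.59 ± 0.83, adjusted p = 0.623). Without normal replicate 1 they lay below it, with a change of -1.65 and an adjusted p of 0.0790.

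S100a8 and S100a9 encode the subunits of calprotectin, which withholds zinc and manganese from microbes and is abundant in neutrophils. S100a9 had 1.73, 0.740 and 0.589 FPKM in the normal tissues of week 5, and 8.87 and 287 FPKM in the PBOO tissues. S100a8 had 1.89, 1.21 and 0 FPKM in normal and 2.74 and 145 FPKM in PBOO tissues. For both genes the PBOO samples lay above all normal samples, but replicate 2 exceeded replicate 1 by 32.4-fold for S100a9 and 52.9-fold for S100a8. Differences of that size between these 2 samples were rare, since 99.7% and 99.9% of 13343 genes had a smaller log2 difference of replicate 2 over replicate 1. S100a9 rose by 5.64 ± 1.42 on the log2 scale (SE, adjusted p = 0.0338). S100a8 differed by 4.99 ± 2.00 with an adjusted p of 0.114. By a looser rule for week 5, a 4-fold change with p under 0.05 before adjustment, S100a8 and Lcn2 joined the other 3 as higher, and 3.59% of all genes were higher by that rule. The S100a8 difference was 7.83 without PBOO replicate 1, which passed (adjusted p = 0.0365), and 2.15 without replicate 2, which did not (adjusted p = 0.416). The S100a9 call held without PBOO replicate 1 (log2 fold change 8.14, adjusted p = 0.00336) and without replicate 2 (3.14, adjusted p = 0.0235), and was lost without normal replicate 1, 2 or 3, with adjusted p of 0.0764, 0.0995 and 0.103.

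At week 4 the calprotectin genes split the normal group. S100a9 was at 1.42, 53.1 and 51.3 FPKM in normal tissues and at 3.44, 8.28 and 16.3 FPKM in PBOO tissues. S100a8 was at 0.542, 21.4 and 21.9 FPKM in normal and at 2.65, 4.00 and 13.6 FPKM in PBOO tissues. Replicates 2 and 3 of the normal group had on average 36.7 times the S100a9 and 39.9 times the S100a8 of replicate 1, and the PBOO samples lay between. Neither gene passed the test (S100a9 -1.03 ± 1.37, adjusted p = 0.603, and S100a8 -0.33 ± 1.39, adjusted p = 0.877). Without normal replicate 1 the changes were -2.73 and -2.02, with adjusted p of 0.0993 and 0.140. The S100a9 to S100a8 ratio ranged from 0.612 to 3.23 over the 10 samples in which S100a8 was above 0.

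Lcn2 encodes lipocalin 2, which binds the siderophores that bacteria use to take up iron. At week 4 it was the defence gene that separated the groups, with 4.35, 3.54 and 5.15 FPKM in normal and 2.22, 2.35 and 0.917 FPKM in PBOO tissues. All PBOO samples lay below all normal samples, as was the case for 34.9% of all genes. The log2 fold change was -1.29 ± 0.37 (SE, adjusted p = 0.0864), and it was -1.05 after median-ratio scaling. The urothelial marker sum also separated the groups at week 4, at 7147 to 9119 FPKM in normal and 4283 to 5415 FPKM in PBOO tissues, and its part in the Lcn2 result was not tested. Per 1000 FPKM of urothelial markers, Lcn2 was at 0.477, 0.495 and 0.619 FPKM in normal and at 0.409, 0.493 and 0.214 FPKM in PBOO tissues, and the groups overlapped on that scale. Unlike for calprotectin, normal replicate 1 did not stand apart, since replicates 2 and 3 had 0.999 of its level, and the change without it was -1.29 (adjusted p = 0.157). At week 5 the direction was opposite, with 1.57, 1.81 and 1.18 FPKM in normal tissues against 3.59 and 96.5 FPKM in PBOO tissues. The difference of 3.56 ± 1.3 had an adjusted p of 0.0909. The PBOO samples differed 26.9-fold from each other. Without replicate 2 the change was 1.2 (adjusted p = 0.0468), and without replicate 1 it was 5.92 (adjusted p = 0.00139).

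Slpi encodes secretory leukocyte protease inhibitor, which blocks neutrophil elastase and has antimicrobial activity of its own. At week 5 it was at 9.52, 30.1 and 6.69 FPKM in normal and at 34.6 and 60.1 FPKM in PBOO tissues. The PBOO samples lay above the normal samples, replicate 1 only narrowly, and the difference of 1.87 ± 0.66 did not pass (adjusted p = 0.0840). At week 4 the values overlapped, with 2.84, 14.6 and 6.48 FPKM in normal and 12.5, 3.62 and 9.04 FPKM in PBOO tissues (log2 fold change 0.20 ± 0.65, adjusted p = 0.842). At week 5 the Slpi difference was 2.26 without PBOO replicate 1 and 1.47 without replicate 2 (adjusted p = 0.116 and 0.266), and without normal replicate 2 it was 2.5, with an adjusted p of 0.0167. At week 4 it was -0.38 without normal replicate 1.

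Camp, the cathelicidin whose cleaved peptide disrupts bacterial membranes, stayed close to the floor. It was listed at 0.0847, 0.307 and 0 FPKM in normal and at 0 in all 3 PBOO tissues of week 4. At week 5 it was listed at 0.173, 0 and 0 FPKM in normal and at 0 and 0.770 FPKM in PBOO tissues. The highest value of week 5 was that of PBOO replicate 2, which also had the highest S100a8, S100a9 and Lcn2 of that week, and no test was made.

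Ptx3 encodes pentraxin 3, a soluble pattern recognition protein that also binds complement components. At week 5 it was at 0.251, 0.473 and 0.128 FPKM in normal and at 0.0713 and 2.06 FPKM in PBOO tissues, so that 1 PBOO sample lay below and 1 above the normal range. At week 4 it was at 0.309, 0.607 and 0.919 FPKM in normal and at 1.10, 0.50 and 2.18 FPKM in PBOO tissues. The groups overlapped in both weeks (log2 fold change 0.77 ± 1.15, adjusted p = 0.642 at week 5, and 0.83 ± 0.59, adjusted p = 0.338 at week 4). Without PBOO replicate 1 the week 5 difference was 2.60, with an adjusted p of 0.0343, and without replicate 2 Ptx3 did not pass the filter. Without normal replicate 1 the week 4 difference was 0.48 (adjusted p = 0.593).

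The 2 PBOO samples of week 5 thus carried different mixtures of defence RNA. In replicate 1 the order was Pigr with 590, C3 with 57.3, Slpi with 34.6, S100a9 with 8.87, Cfb with 6.57, Lcn2 with 3.59 and S100a8 with 2.74 FPKM. In replicate 2 it was S100a9 with 287, Pigr with 207, S100a8 with 145, Lcn2 with 96.5, C3 with 63.5, Slpi with 60.1 and Cfb with 5.79 FPKM. The sum over the 9 genes was close in both, at 704 and 868 FPKM, and was 30.6, 97.3 and 32.8 FPKM in the normal samples. C3, Cfb and Slpi differed less than 2-fold between these samples. S100a8, S100a9, Lcn2 and Ptx3 differed more than 25-fold. In normal tissues of week 5, Pigr and Slpi were the most abundant, and the means of Lcn2, S100a8, S100a9 and C3 lay between 0.628 and 1.52 FPKM. Among these 4, the replicates of S100a8 and S100a9 overlapped with those of all others, whereas every Lcn2 value lay above every C3 value.

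**Figure D2:**
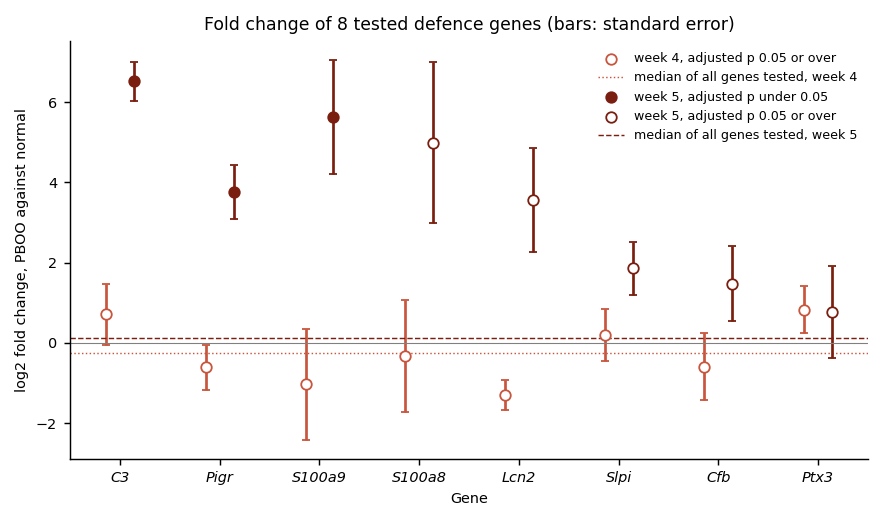
Log2 fold change of PBOO against normal tissues for the 8 defence genes tested at week 4 and week 5, on log2(FPKM + 0.1), with bars for the standard error of the limma fit and filled points for an adjusted p under 0.05. The filled points are C3, Pigr and S100a9 at week 5 (6.53, 3.76 and 5.64), and no week 4 point is filled. The horizontal lines at -0.25 and 0.12 are the medians of all genes tested at week 4 and week 5.

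The effect of PBOO differed between the weeks for 4 of the 8 genes, by the test of the difference itself over all 11 samples (adjusted p under 0.05 and a difference of at least 1 on the log2 scale). By this rule 15.6% of 11296 genes were higher at week 5 relative to week 4. Without adjustment the rule named the same 4 genes, and 17.6% of all. C3 differed by 5.81 ± 1.03 (adjusted p = 0.00201) and Pigr by 4.37 ± 0.96 (adjusted p = 0.00604). Lcn2, with a negative change at week 4 and a positive one at week 5, differed by 4.85 ± 1.37 (adjusted p = 0.0182). S100a9 differed by 6.67 ± 2.22 (adjusted p = 0.0362). These calls held in all 19 alternatives for C3, Pigr and Lcn2, whereas S100a9 lost its call in 10 of them. S100a8, Slpi, Cfb and Ptx3 did not pass, with differences of 5.32, 1.67, 2.07 and -0.06 and adjusted p of 0.130, 0.218, 0.251 and 0.975. The median of the difference over all genes was 0.35, and 0.07 after median-ratio scaling. A difference of the PBOO effect by week cannot be told apart from one by the library set of each week.

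Other genes of the same pathways were read from lists that were set by hand with earlier results of these data known. Their counts and medians are thus descriptions and not independent tests. Of 36 other genes on the antimicrobial list, 25 were in the table and 12 passed the filter at week 5, of which 8 rose and 0 fell. Of all genes, 7.91% rose by this rule. The list was not limited to proteins with a known antimicrobial action. Among the 8 were S100a4, S100a11 and S100a6 (2.27, 1.61 and 1.06). Mmp7, a matrix metalloproteinase that activates defensins, was at 0.870, 0.415 and 0.688 FPKM in normal and at 285 and 730 FPKM in PBOO tissues (log2 fold change 9.28 ± 0.46, adjusted p = 0.000288). Wfdc18, which belongs to the whey acidic protein family with Slpi, was listed at 0 in all 3 normal samples and at 3.46 and 48.1 FPKM in the PBOO samples (adjusted p = 0.00714). Chi3l1, a chitinase-like protein, rose by 4.67 ± 0.80 (adjusted p = 0.010). The median over the 12 genes was 1.94. At week 4, 11 were tested, none passed by either rule, and the median was -0.22.

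Among other complement genes, of 39 listed and 35 in the table, 28 were tested at week 5, of which 5 rose and 4 fell, with a median of 0.44. Of all genes, 11.4% fell by this rule at week 5. Cfi, the protease that inactivates cleaved C3, was at 0.352, 0.239 and 0 FPKM in normal and at 5.72 and 23.5 FPKM in PBOO tissues (log2 fold change 5.56 ± 0.87, adjusted p = 0.00772). Fcnb, a ficolin that starts the lectin pathway, rose by 3.74 ± 0.86 (adjusted p = 0.0256). C7, part of the membrane attack complex, fell by 3.74 on the log2 scale (adjusted p = 0.00900), Cd59, which blocks that complex, fell by 1.75 (adjusted p = 0.00840), and C5ar2, a receptor for C5a, fell by 1.56 (adjusted p = 0.00621). At week 4, none of 27 complement genes passed the adjusted threshold. The median over the 27 was 0.50.

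Among the acute phase genes, 9 of 21 were tested at week 5, of which 2 rose and 2 fell, with a median of 0.67. Cd14, a co-receptor for bacterial lipopolysaccharide, rose by 2.97 ± 0.37 (adjusted p = 0.00384), and haptoglobin (Hp), which binds free haemoglobin, rose by 1.52 ± 0.35 (adjusted p = 0.0251). Lbp, which hands lipopolysaccharide to Cd14, fell by 2.68 (adjusted p = 0.000550), and the protease inhibitor A2m fell by 2.78 (adjusted p = 0.0489). At week 4, none of 12 passed the adjusted threshold. By the looser rule 3 were lower, namely the metallothioneins Mt1 (-1.37, adjusted p = 0.0554) and Mt2A (-1.09, adjusted p = 0.0629) and Hp (-1.05, adjusted p = 0.0683). The medians were -0.13 for this list at week 4 and -0.25 for all genes.

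A list of inducing signals held cytokines, their receptors and transcription factors, and also the feedback inhibitor Socs3. Of its 27 tested genes, 17 rose at week 5 and 0 fell, with a median of 1.51, while 7.91% of all genes rose by this rule. Socs3 was among the 17 (2.74, adjusted p = 0.00543). Il1a, a cytokine released by damaged epithelium, was at 0, 0.156 and 0.123 FPKM in normal and at 33.7 and 30.9 FPKM in PBOO tissues (log2 fold change 7.50 ± 0.46, adjusted p = 0.000459). Its PBOO values were as close to each other as those of C3. Il17a was listed at 0 in all 3 normal samples and at 1.19 and 6.74 FPKM in the PBOO samples (adjusted p = 0.00937), and Csf3, the growth factor of neutrophils, rose by 4.56 ± 0.89 (adjusted p = 0.0152). At week 4, none of 21 passed the adjusted threshold, and the transcription factor Cebpd alone was lower by the looser rule (-1.13 ± 0.23, adjusted p = 0.0559). Among receptors and partners of the defence proteins, 5 of 12 rose at week 5 and 0 fell, with a median of 1.37. The largest change among them was that of Mmp9, the gelatinase that forms a complex with lipocalin 2, at 0, 0.0211 and 0 FPKM in normal and 1.83 and 36.7 FPKM in PBOO tissues (adjusted p = 0.0149). At week 4, none of 10 passed the adjusted threshold, and the median was 0.18. Some genes of these lists had a mean under 0.5 FPKM in normal tissues of week 5 and passed the filter through the PBOO samples, so that they could hardly be found lower. These were Ptx3, the antimicrobial genes Chi3l1, Lpo and Wfdc18, the complement genes Cd46, Cfi and Fcnb, the signals Csf3, Il17a, Il17f, Il1a, Tlr5 and Tnf, and Mmp9. Without them, 6 of 9 genes of the antimicrobial list rose (median 1.5), S100a4, S100a6 and S100a11 among them. Of the complement genes, 3 of 25 rose and 4 fell (median -0.03). In the list of inducing signals 12 of 21 rose (median 1.21), and 3 of 10 receptors and partners rose (median 0.92).

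**Figure D3:**
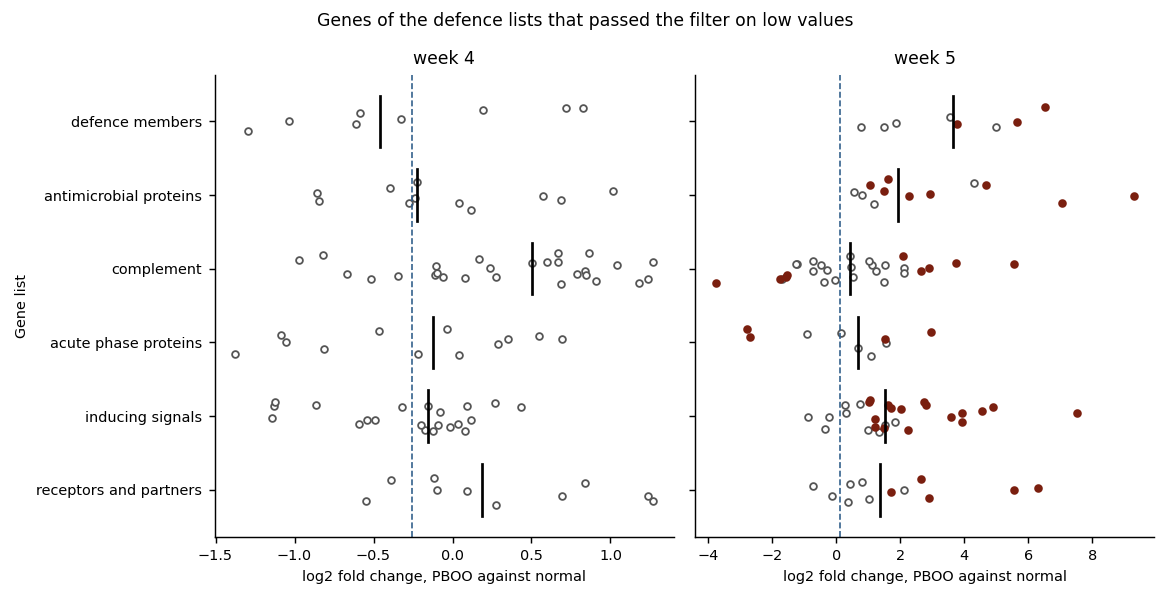
Log2 fold change of PBOO against normal tissues at week 4 and week 5 for every tested gene of the defence genes and 5 related lists, with 1 point per gene, a black bar at the list's median and a dashed line at the median of all genes. Filled points passed an adjusted p under 0.05 and a 2-fold change, and no list has a filled point at week 4. At week 5 they include 3 of 8 defence genes, 8 of 12 on the antimicrobial list and 17 of 27 on the list of inducing signals. The axes of the panels differ in range.

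Markers of other cell types moved with these results, and their part in them was not tested. Neutrophil markers were summed over the 11 of 12 listed genes in the table. The sum was 0.878 to 1.56 FPKM in normal and 7.42 and 61.3 FPKM in PBOO tissues at week 5. Of the 11 genes, 6 passed the filter, 5 of them through the PBOO samples alone, so their test counts are not used. Granule genes differed among themselves. Mmp9 was at 1.83 and 36.7 FPKM and Mmp8 at 0.263 and 9.25 FPKM in the PBOO samples, against at most 0.0211 and 0.0353 FPKM in normal tissues. Cd177 was listed at 0 in normal and at 0 and 1.08 FPKM in PBOO tissues, Elane at 0 in all week 5 samples except PBOO replicate 2 (0.0219 FPKM), and Mpo at 0, 0.300 and 0 FPKM in normal and at 0 and 0.0803 FPKM in PBOO tissues. The neutrophil sum rested on different genes in normal and PBOO tissues. Il1r2 made up 1.12, 0.135 and 0.776 FPKM of it in normal tissues, whereas Mmp9 made up 36.7 FPKM in PBOO replicate 2. Ratios to the sum are thus not levels per neutrophil. Relative to the neutrophil sum, S100a9 was at 1.11, 0.843 and 0.471 in normal and at 1.2 and 4.68 in PBOO tissues, which narrowly did not overlap. S100a8 was at 1.21, 1.38 and 0 in normal and at 0.369 and 2.36 in PBOO tissues on that scale, which overlapped. Lcn2 was at 1.01, 2.06 and 0.946 in normal and at 0.483 and 1.57 in PBOO tissues, which overlapped too. At week 4 the sum was 2.14 to 7.83 FPKM in normal and 3.03 to 4.92 FPKM in PBOO tissues, and normal replicate 1, with the lowest S100a8 and S100a9, had the lowest sum. Macrophage markers summed to 32.4 to 84.5 FPKM in normal and to 249 and 673 FPKM in PBOO tissues at week 5, and 3 of 7 rose. The 3 were Lyz2, Cd68 and Cd14, and Lyz2 alone was at 96.2 and 545 FPKM in the PBOO samples. Csf1r and Adgre1 did not pass (0.84 and 1.14, adjusted p = 0.264 and 0.239). Cd163 and Mrc1 were below 0 and did not pass either (-0.39 and -0.53, adjusted p = 0.779 and 0.562). Markers of B and plasma cells, whose antibody Pigr carries, summed at week 5 to 0.135, 0.192 and 0 FPKM in normal and to 0.635 and 3.39 FPKM in PBOO tissues, which did not overlap, and none of the 5 in the table passed the filter. At week 4 that sum was 0.0784 to 0.518 FPKM in normal and 0.290 to 3.35 FPKM in PBOO tissues.

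At week 4, where the urothelial sum was lower in all PBOO samples, the smooth muscle sum was higher in all of them, at 25296 to 27377 FPKM in normal and 50655 to 81975 FPKM in PBOO tissues. The ranges of the urothelial sum overlapped at week 5, at 8262 to 10848 FPKM in normal and at 10585 and 11391 FPKM in PBOO tissues. Within the list, 2 of 13 rose, among them the basal cell keratin Krt5 (3.52 ± 0.58, adjusted p = 0.00893), and 4 fell, among them the umbrella cell keratin Krt20 (-6.47 ± 0.48, adjusted p = 0.000760). Per 1000 FPKM of urothelial markers, Pigr was at 1.31, 6.47 and 2.12 FPKM in normal and at 55.7 and 18.1 FPKM in PBOO tissues. By the same measure C3 was at 0.0625, 0.120 and 0.0224 FPKM in normal and at 5.41 and 5.57 FPKM in PBOO tissues. For both genes the groups did not overlap on that scale. For Slpi the ranges overlapped, at 0.915, 3.65 and 0.616 FPKM in normal and 3.27 and 5.28 FPKM in PBOO tissues. The urothelial sum rested on different genes in normal and PBOO tissues, however. Krt5 made up 182, 124 and 97.4 FPKM of it in normal and 780 and 2859 FPKM in PBOO tissues. Upk2 made up 1834, 1557 and 1721 FPKM in normal and 321 and 328 FPKM in PBOO tissues. Ratios to the urothelial sum are thus not levels per urothelial cell. Liver markers summed to 18.4 to 19.0 FPKM in normal and to 21.0 FPKM in both PBOO samples at week 5, with Alb listed at 0 in every sample of that week. Nearly all of that sum was Tf, at 17.6, 18.0 and 17.0 FPKM in normal and 20.6 and 20.5 FPKM in PBOO tissues. Ttr fell by 2.32 on the log2 scale (adjusted p = 0.0140).

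**Figure D4:**
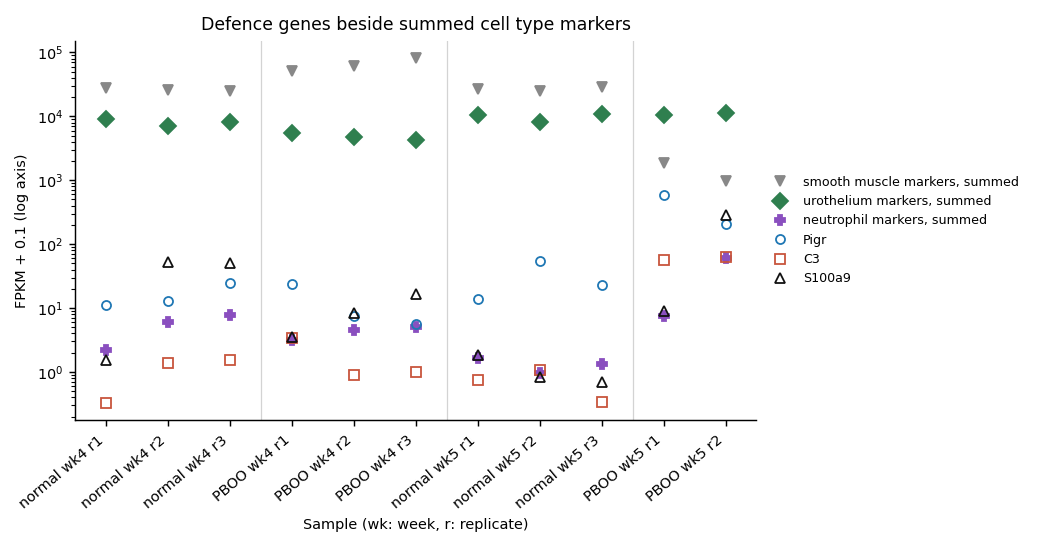
FPKM plus 0.1 (log axis) of Pigr, C3 and S100a9 beside the summed markers of smooth muscle, urothelium and neutrophils in each of the 11 samples. In the PBOO samples of week 5 the smooth muscle sum drops to 989 and 1849 FPKM, the urothelial sum stays near the normal level, and S100a9 and the neutrophil sum are both highest in replicate 2.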

How the data were processed

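Bladder RNA of 11 rat samples was compared. The deposited table, made by the authors, holds FPKM values of 18507 genes in 11 columns, all used. According to the methods, TruSeq libraries were sequenced in pairs, trimmed, mapped with HISAT2 v2.0.4, assembled with StringTie v1.3.1 and expressed as FPKM with featureCounts. The authors tested differential expression with DESeq2. The submitters' processing notes name mm10, a mouse build, for these rat samples, and the annotation and strand of counting are not given in the sources used here. Read counts were not used here, and the low FPKM showed no clear steps of whole reads, so the depth of each sample is unknown, no count test was run and no counting error is given. Column sums were 424961 to 564343 FPKM. The values were not scaled further.

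Each week was fitted apart in R 4.3.3 with limma 3.58.1 (lmFit, eBayes with a trend) on log2(FPKM + 0.1), with a filter on genes (0.5 FPKM or more on average). Fold changes are on that scale, so those of low genes are understated. The difference between weeks was an interaction contrast over all 11 samples, for genes that also had 1 or more values above 0 in each week. Benjamini-Hochberg adjustment ran over all genes tested. The fits were tested on simulated data. The labels number the samples of a group but do not tie them to animals, so p-values measure the spread between these samples. The defence genes, the related lists and the markers were chosen with earlier results of these data known. All defence genes are named, and from each related list up to 3 genes per direction and week, those with the largest log2 fold change of 2-fold or more, provided that p was under 0.05 before adjustment, the average reached 1 FPKM and the groups did not overlap. Some results are not reported here. Lpo, Cd46, Il17f, Tlr5, Tnf, Cd177, Elane, Mpo, Alb, Csf1r, Adgre1, Cd163, Mrc1, Il1r2, Tf, Ttr, S100a4, S100a6, S100a11 and Socs3 were named after their values were seen. Alternatives were other pseudocounts, filters and scalings, no trend, 1 fit over all samples, a replicate block and leaving out each sample. Start regions come from RefSeq (GRCr8), matched by symbol. Tables and figures were made with Python 3.11.15, pandas 2.3.3, numpy 2.4.6 and matplotlib 3.10.9.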

Additional observations from a re-analysis of the deposited data

Results flagged for a closer look

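The change with PBOO differed between week 5 and week 4 for 4 defence genes by the interaction test of limma, and each was larger at week 5. The difference was 5.81 on the log2 scale for C3, 4.37 for Pigr, 4.85 for Lcn2 and 6.67 for S100a9. Week and library set cannot be told apart in these differences. No group held enough samples for a check of single outlying values, since the groups had 3 or 2 samples.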

How the results depend on the processing

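Of 380 alternative values of single defence genes, 342 kept their direction and side of the threshold, 14 lost and 11 gained the threshold and 13 reversed. C3 and Pigr stayed upregulated at week 5 in every alternative run. At week 4 no alternative gave a call by adjusted p (0 to 0 with 1 sample left out), whereas the count by unadjusted p was 1 and became 0 at a pseudocount of 1 and 0 in 1 fit over all samples. With 1 sample left out it ranged from 0 to 4, with 4 (Cfb, Lcn2, S100a8 and S100a9) without normal replicate 1, 2 (Lcn2 and Pigr) without PBOO replicate 1 and 0 without PBOO replicate 3. At week 5 the count of 3 ranged from 2 to 6 with 1 sample left out, with 6 without PBOO replicate 1 and S100a9 lost without any 1 of the normal samples, and it was 2 without a trend (S100a9 adjusted p = 0.0525). The week 5 count by unadjusted p was 5, was 3 without a trend, and ranged from 3 to 6 with 1 sample left out, with 3 without normal replicate 3 or PBOO replicate 2. Between weeks the count of 4 ranged from 3 to 6, and by unadjusted p from 3 to 7, with 7 without normal week 4 replicate 1. With the replicate number as a block, no defence gene was called at week 4, and 4 were called at week 5, Slpi being added with an adjusted p of 0.0193. Whether the numbers pair the samples could not be settled. Same-numbered samples correlated at 0.154, -0.02 and 0.232 at week 4, and other pairs at -0.210 to 0.0939. At week 5 same-numbered samples correlated at 0.00 and 0.124. By its column name, however, PBOO replicate 2 of week 5 carries the number 3, and it correlated at -0.161 with normal replicate 3. The block paired it with normal replicate 2 and left normal replicate 3 without a PBOO sample. With 2 PBOO samples, each correlation there has a mirror of opposite sign, so that check cannot decide. Reversed values, none past the threshold, were those of week 4 for Slpi (-0.38 without normal replicate 1, -0.17 without PBOO replicate 1), C3 (-0.000913 without normal replicate 1), S100a8 (0.51 and 0.53 without normal replicates 2 and 3, 0.16 without PBOO replicate 1) and Cfb (0.11 without normal replicate 3), and the difference between weeks for Ptx3 (0.067 at a pseudocount of 1, 0.085 after quantile normalization, and with 1 sample left out 0.29, 0.41, 0.28 and 1.77). With 1 sample left out these values spanned -2.02 to 0.53 for S100a8, -0.38 to 0.78 for Slpi, -0.000913 to 1.11 for C3, -1.65 to 0.11 for Cfb and -1.89 to 1.77 for Ptx3. Over all genes, calls by adjusted p at week 4 numbered 42 and ranged from 0 to 719, the latter without PBOO replicate 1. By unadjusted p at week 4, 278 genes were higher and 277 lower, against 412 and 117 after median-ratio scaling. At week 5 with 1 sample left out, 5 to 9 antimicrobial genes were called (5 without normal replicate 1 or 2), 2 to 5 acute phase genes (2 without normal replicate 1, 2 or 3), 11 to 20 inducing genes (11 without normal replicate 1), 6 to 15 complement genes and 4 to 8 receptors and partners (15 and 8 without PBOO replicate 1). Between weeks, median-ratio scaling and quantile normalization left 3 calls, with adjusted p of 0.0508 and 0.0555 for S100a9, and the split over all genes became 1027 higher and 1561 lower from 1759 and 1314. Where a week 5 PBOO sample was left out, the remaining one was assumed to vary like the normal samples. The cause of these changes was not tested beyond the sample left out.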
